A study of Mus musculus with 48 samples.

Results

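Hmgcs1, Idi1, Fdps, Sqle, Lss, Cyp51, Srebf2 and Insig1 are genes of cholesterol synthesis and its control. Their rows were taken by gene symbol from both deposited tables of gene expression, which gave 8 of 49585 gene rows, each read over all 12 groups of treatment and time. Hmgcs1, Idi1, Fdps, Sqle, Lss and Cyp51 encode enzymes, Srebf2 encodes the transcription factor SREBP-2 and Insig1 encodes an inhibitor of its activation. None of them encodes a receptor for cholesterol uptake, so uptake is described only through a separate list of genes.

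RNA was sequenced from whole kidneys of wild-type mice that had received D-alanine, the D-enantiomer of alanine, or vehicle. Kidneys were collected at circadian times CT0, CT4, CT8, CT12, CT16 and CT20, with 4 libraries for each treatment at each time and 48 in all. Each of 2 deposited tables holds 24 of the libraries, a pair from every group, and the series text states that the experiment was done 2 times with different mice, so taking a table as a run is an inference. The sources used here give no dose, route, strain, sex, age or light schedule, and the question named by the series title is whether D-alanine alters the circadian rhythm.

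Cells make cholesterol from acetyl-CoA through the mevalonate pathway, in which isoprenoid units are joined to squalene, squalene is closed into a ring, and the ring is trimmed to cholesterol. When sterols are scarce in the endoplasmic reticulum, the escort protein SCAP carries SREBP-2 to the Golgi, where proteases release the part that enters the nucleus and raises transcription of the pathway enzymes, of Insig1 and of Srebf2 itself. When sterols are plentiful, INSIG proteins hold SCAP in the endoplasmic reticulum. SREBP-2 acts from sterol regulatory elements in promoters, usually together with the factor NF-Y, which binds CCAAT boxes. In liver, cholesterol synthesis is known to follow a daily rhythm.

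Promoter sequences of 3 of these genes are shown with their motifs. RefSeq promoter windows of GRCm38.p6, from 250 bases before to 50 bases after the start site, were found for 6 of the 8 genes. Hmgcs1 is printed because it held the sterol motif searched for, Idi1 because its level varied most over the day and Insig1 because it held an E-box, the motif of clock activators. Capitals mark the 3 motifs, found on either strand: the sterol regulatory element TCACNCCAC, the NF-Y box CCAAT and the E-box CACGTG.
Hmgcs1: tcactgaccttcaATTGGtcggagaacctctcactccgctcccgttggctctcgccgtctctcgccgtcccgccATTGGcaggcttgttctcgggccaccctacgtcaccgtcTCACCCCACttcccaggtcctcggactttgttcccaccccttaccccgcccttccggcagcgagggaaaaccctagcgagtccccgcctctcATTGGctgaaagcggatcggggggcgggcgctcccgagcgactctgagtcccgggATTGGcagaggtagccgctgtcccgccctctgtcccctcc
Idi1: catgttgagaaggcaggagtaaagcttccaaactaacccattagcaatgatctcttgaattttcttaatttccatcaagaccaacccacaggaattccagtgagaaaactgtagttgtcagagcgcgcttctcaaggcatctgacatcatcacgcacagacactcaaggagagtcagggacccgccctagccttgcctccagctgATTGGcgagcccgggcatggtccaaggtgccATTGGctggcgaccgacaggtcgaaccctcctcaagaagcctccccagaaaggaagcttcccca
Insig1: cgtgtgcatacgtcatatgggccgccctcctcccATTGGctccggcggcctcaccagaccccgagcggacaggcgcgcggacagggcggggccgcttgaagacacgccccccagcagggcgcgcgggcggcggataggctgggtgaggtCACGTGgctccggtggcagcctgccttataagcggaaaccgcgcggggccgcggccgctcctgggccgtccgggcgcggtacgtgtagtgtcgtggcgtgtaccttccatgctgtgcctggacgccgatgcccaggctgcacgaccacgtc
The windows are chr13:119690101-119690400 for Hmgcs1, chr13:8885356-8885655 for Idi1 and chr5:28071162-28071461 for Insig1, all on the plus strand. A CCAAT box was present in 6 of the 6 windows, against 37.4% of 32851 mouse promoter windows. Among 16 windows from 13 genes of other sterol enzymes, it was present in 12. TCACNCCAC was present in 1 of the 6, that of Hmgcs1 at position -137 from the start site. It was present in 1.24% of all windows and in 0 of the 16 of other sterol enzymes. CACGTG was present in 1 of the 6, that of Insig1 at -101, against 7.15% of all windows and 3 of the 16. No member window held overlapping motifs. Hmgcs1 had 4 CCAAT boxes, the leftmost bases of which lay at -237, -176, -45 and 11, and Idi1 had 2, at -45 and -14. A match describes letters only, and a window without one leaves binding there unmeasured.

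By the deposited coordinates (GRCm38), Hmgcs1 spans chr13:119690462-119708086 and Idi1 chr13:8885501-8892451 on the plus strand. Sqle spans chr15:59315077-59331192, Lss chr10:76531588-76557138, Srebf2 chr15:82147266-82205376 and Insig1 chr5:28071363-28078662, also on the plus strand. Cyp51 spans chr5:4081145-4104746 and Fdps chr3:89093588-89101959 on the minus strand. All are annotated as protein-coding, and each value is per gene, not per transcript.

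The 8 genes were present at very different levels. Values are FPKM, which scale fragments by exon length and by each library's total, so comparisons between genes depend on the exon length used. Hmgcs1, the synthase that makes HMG-CoA, averaged 140 ± 27.4 FPKM over the 48 libraries (SD, all groups together), higher than 97.6% of the 14922 genes that passed the filter on low values, which was at least 1 FPKM in at least 4 libraries. Cyp51, the demethylase of lanosterol, averaged 48.7 ± 18.1 FPKM. Its highest library, at 79.3 FPKM, lay just under the lowest of Hmgcs1, at 79.6 FPKM. Srebf2 averaged 12.4 ± 2.44 FPKM and Insig1 11.9 ± 4.24 FPKM, a difference within their spread. Sqle, the squalene epoxidase, averaged 7.06 ± 2.44 FPKM, and Idi1, the isomerase of isoprenoid units, 4.28 ± 3.15 FPKM, with ranges that overlapped. Lss, which closes squalene epoxide into lanosterol, averaged 1.85 ± 0.313 FPKM, over a summed exon length of 10787 bases, the longest of the 8 in the GENCODE M21 annotation. Its median of 231.5 fragments per library lay above the 137 of Idi1, although its FPKM was lower.

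Fdps, which makes farnesyl diphosphate, stood apart. Its values ran from 0.0312 to 0.548 FPKM, with a mean of 0.188 FPKM, and it reached 1 FPKM in 0 of 48 libraries, so it was not tested. Each library held between 1 and 25 Fdps fragments (median 9). Fdps has near-identical copies in the mouse genome, and the sources used here do not say how the counting treated fragments shared among copies, so its level is uncertain. The other 7 genes passed the filter through values of at least 1 FPKM in every library. The lowest coverage among them was 42 fragments, for Idi1, and 137 fragments for Lss.

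**Figure D1:**
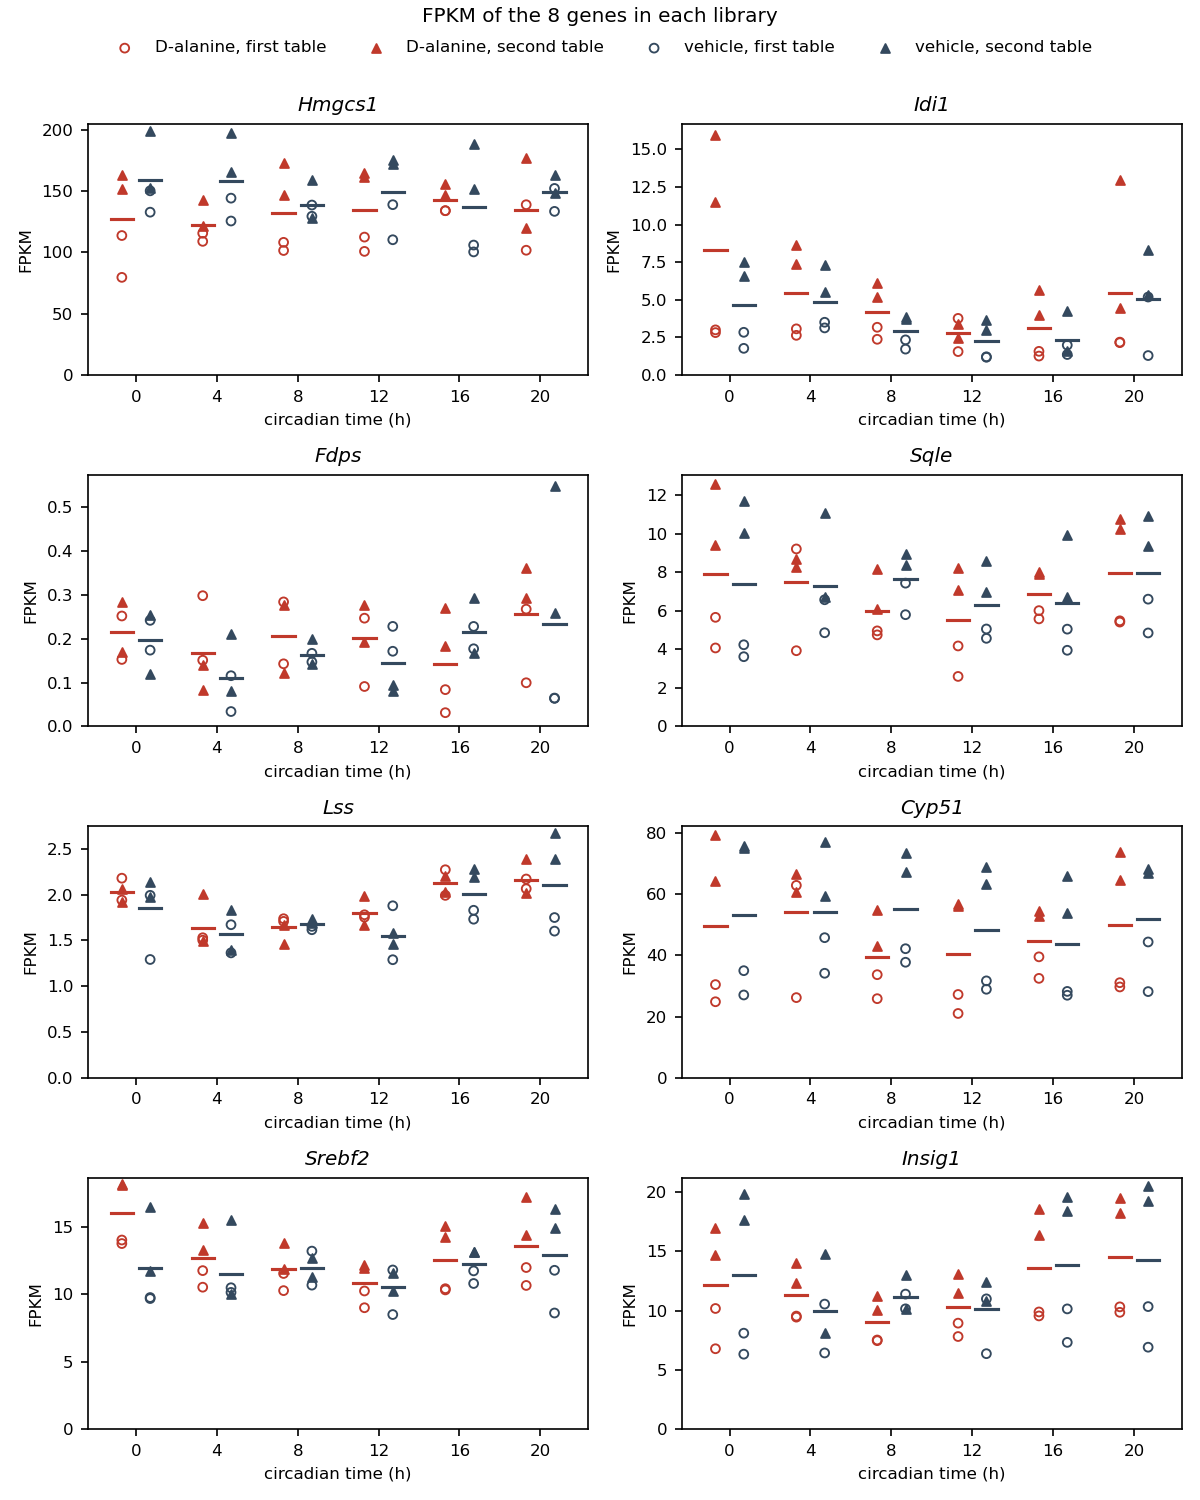
FPKM of each gene (y axis, from 0) in each library against circadian time (x axis, hours), with D-alanine in red to the left of vehicle in dark blue; circles are the first table, triangles the second, and the short line is the mean of the 4 libraries. The triangles of Cyp51, Idi1, Sqle and Insig1 lie mostly above the circles, and the red and blue libraries overlap at every time.

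The libraries held 7626057 to 14403234 fragments, with a median of 11601134.5. Kidney markers fitted the label: the summed level of 7 proximal tubule markers had a median of 2818 FPKM with D-alanine and 2736 FPKM with vehicle. None of 7 adrenal cortex markers passed the filter, and their sum stayed between 0.195 and 2.67 FPKM with D-alanine and between 0.244 and 1.40 FPKM with vehicle. The 6 inner medulla markers summed to 21.0 to 719 FPKM with D-alanine and 26.4 to 393 FPKM with vehicle. In a whole kidney, fewer cells of a type and less RNA per cell cannot be told apart. Mitochondrially encoded genes took 14.9% to 19.1% of FPKM with D-alanine and 16.9% to 23.4% with vehicle in the second table, and 28.9% to 46.0% with D-alanine and 35.4% to 47.0% with vehicle in the first.

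The first comparison asked whether D-alanine moved these genes, averaged over the 6 times. None of the 7 genes tested passed an adjusted p of 0.05 (limma on log2(FPKM + 1), Benjamini-Hochberg over all genes tested), beside 1.74% of all genes. At an unadjusted p under 0.05 there were 3 of 7, which were Hmgcs1, Srebf2 and Idi1, beside 3064 of 14922 genes. Their signs differed, with Hmgcs1 below 0 and Srebf2 and Idi1 above 0 in D-alanine minus vehicle. The median change over the 7 genes was 0.01, beside 0.06 over all genes tested. Differences above 0 were found for 4 of the 7, beside 11391 of 14922 genes. Of 7 endothelial markers, 7 had differences above 0 (median 0.19, 0 called, 6 at an unadjusted p under 0.05), with sums of 55.7 to 221 FPKM with D-alanine and 48.4 to 124 FPKM with vehicle, and their part in these values was not tested.

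Hmgcs1 ranged from 79.6 to 177 FPKM with D-alanine (median 134, n = 24) and from 100 to 199 FPKM with vehicle (median 149, n = 24). The groups overlapped widely, and the mean with D-alanine was the lower one in 10 of the 12 combinations of time and table. Neither this count nor those of combinations for the genes below were made over all genes. The log2 difference was -0.17 ± 0.06 (SE), with an adjusted p of 0.0842 from limma, and it was -0.13 in the second table alone and -0.21 in the first. Leaving out D-alanine CT20 replicate 1 brought the adjusted p to 0.0476 at a difference of -0.19.

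Cyp51 ranged from 21.0 to 79.3 FPKM with D-alanine (median 47.96) and from 27.0 to 77.0 FPKM with vehicle (median 49.8). Its log2 difference was -0.14 ± 0.07 (adjusted p = 0.255, limma), and it was lower with D-alanine in 9 of 12 combinations. Sqle, with medians of 6.59 FPKM under D-alanine and 6.73 FPKM under vehicle, differed by -0.04 ± 0.08.

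Idi1 ranged from 1.26 to 15.99 FPKM with D-alanine (median 3.29) and from 1.18 to 8.29 FPKM with vehicle (median 3.32). Its log2 difference was 0.25 ± 0.12 (adjusted p = 0.216, limma), and it was higher with D-alanine in 8 of 12 combinations. Lss differed by 0.06 ± 0.04, with medians of 1.97 FPKM under D-alanine and 1.74 FPKM under vehicle.

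The regulators split as well. Srebf2 ranged from 9.01 to 18.2 FPKM with D-alanine (median 12.1) and from 8.501 to 16.5 FPKM with vehicle (median 11.7). Its log2 difference was 0.11 ± 0.05 (adjusted p = 0.171, limma), it was higher with D-alanine in 9 of 12 combinations, and rescaling each library to TPM moved it to 0.17 with an adjusted p of 0.0353. Over all genes, the same rescaling moved the number called for the mean difference from 259 to 2668. Insig1 differed by 0.01 ± 0.08, the smallest change of the 7, with medians of 10.2 FPKM under D-alanine and 10.7 FPKM under vehicle. The sign of Insig1 and Lss turned under median centring and quantile normalization, that of Insig1 also without mitochondrial genes, and that of Sqle under TPM rescaling.

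At single times, the 4 D-alanine and 4 vehicle libraries overlapped in 48 of 48 combinations of gene and time, a count that joins 2 tables of different level. Within both tables, the D-alanine pair lay apart from the vehicle pair in the same direction in 6 of the 48, below it for Hmgcs1 at CT4, Sqle at CT8 and Cyp51 at CT8 and CT12, and above it for Idi1 at CT8 and Srebf2 at CT0. The same count was not made over all genes, so whether 6 exceeds their share is not known. None of the 7 genes passed the adjusted threshold at any time, beside 1.14% of all genes at CT0 and 0% at each later time. At an unadjusted p under 0.05 there were 2 members at CT0, 1 at CT4, 1 at CT8 and 0 at CT12, CT16 and CT20. Over all genes these unadjusted counts were 3281 at CT0, 381 at CT4, 2215 at CT8, 338 at CT12, 708 at CT16 and 384 at CT20.

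Srebf2 at CT0 had the smallest of these adjusted p-values. It stood at 18.1 and 18.2 FPKM with D-alanine and at 16.5 and 11.8 FPKM with vehicle in the second table, and at 13.8 and 14.0 FPKM with D-alanine and 9.69 and 9.76 FPKM with vehicle in the first. Within each table both D-alanine libraries lay above both vehicle libraries. The log2 difference was 0.42 ± 0.12, with an adjusted p of 0.0586 from limma, beside a median of 0.12 over all genes at CT0. TPM rescaling gave 0.57 and an adjusted p of 0.0136, and leaving out vehicle CT0 replicate 3, vehicle CT12 replicate 1 or vehicle CT4 replicate 3 gave 0.0311, 0.0429 and 0.0499. Over all genes, TPM rescaling moved the number called at CT0 from 170 to 2612. At CT0, 7 of 7 endothelial, 6 of 6 inner medulla and 5 of 5 adipose markers also had differences above 0, with medians of 0.39, 0.42 and 0.39. Of all genes, 10372 of 14922 had differences above 0 at CT0. So had 1 of 5 red blood cell, 2 of 7 proximal tubule, 4 of 5 thick limb and distal tubule and 3 of 6 collecting duct markers. For podocyte, macrophage and liver markers it was 2 of 4, 3 of 4 and 2 of 4. With the inner medulla level as a covariate the difference of Srebf2 was 0.42 (adjusted p = 0.0662, limma), and the part of the endothelial and adipose markers was not tested.

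Hmgcs1 had differences below 0 at CT0 and CT4. At CT4 it stood at 143 and 121 FPKM with D-alanine and at 198 and 165 FPKM with vehicle in the second table, and at 109 and 116 FPKM with D-alanine and 144 and 126 FPKM with vehicle in the first. D-alanine lay below vehicle within each table. The log2 difference was -0.36 ± 0.14 (unadjusted p = 0.0133, adjusted p = 1, limma). At CT0 the difference was also -0.36 ± 0.14 (adjusted p = 0.128), with the second table at -0.15 and the first at -0.56.

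Cyp51 at CT8 was the other value with an unadjusted p under 0.05. It stood at 43.2 and 54.9 FPKM with D-alanine and at 73.4 and 67.2 FPKM with vehicle in the second table, and at 33.7 and 25.9 FPKM with D-alanine and 42.2 and 37.8 FPKM with vehicle in the first. The log2 difference was -0.47 ± 0.18 (unadjusted p = 0.0123, adjusted p = 0.281, limma). At CT8, 5 of 6 inner medulla, 7 of 7 endothelial and 5 of 5 adipose markers had differences above 0, with medians of 1.11, 0.55 and 0.77. Of all genes, 10736 of 14922 had differences above 0 at CT8, with a median of 0.10. So had 5 of 5 red blood cell, 3 of 7 proximal tubule, 1 of 5 thick limb and distal tubule and 3 of 6 collecting duct markers. For podocyte, macrophage and liver markers it was 3 of 4, 3 of 4 and 2 of 4. With the inner medulla level as a covariate the difference of Cyp51 was -0.49 (adjusted p = 0.363, limma), and the part of the endothelial and adipose markers was not tested.

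**Figure D2:**
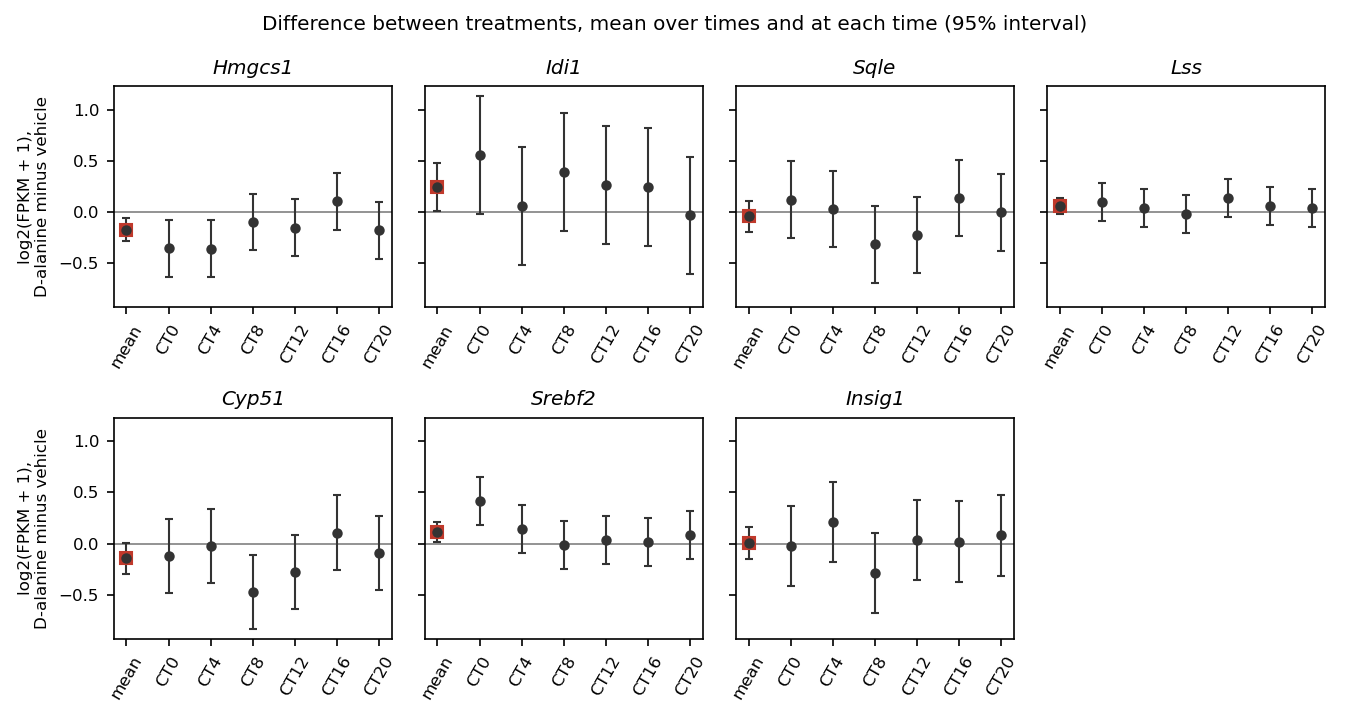
Difference in log2(FPKM + 1), D-alanine minus vehicle (y axis), for 7 genes, as the mean over times (red square) and at each circadian time (points); bars are 95% intervals from limma. The intervals of Hmgcs1 at CT0 and CT4, of Cyp51 at CT8 and of Srebf2 at CT0 are the ones at single times that leave out 0, before adjustment over all genes.

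The change did not pass the test for varying with time in any of the 7 genes (F test of 5 contrasts, limma), as in 0 of 14922 genes, with 0 members and 527 genes at an unadjusted p under 0.05. It likewise did not pass the test for differing between the tables in any of them, as in 0 of 14922 genes, with 0 members and 573 genes at an unadjusted p under 0.05 (limma). The smallest unadjusted p of that test was 0.0575, for Lss.

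The daily profile was then fitted as a 24 h cosine curve, first with both treatments together. Of the 7 genes, 4 were called rhythmic at an adjusted p of 0.05, beside 26.5% of all genes. They were Idi1, Lss, Srebf2 and Insig1, and their fitted peaks fell between CT19.2 and CT1.06, around the end of one cycle and the start of the next. Idi1 had an amplitude of 0.49 ± 0.08 on the log2 scale, so its fitted peak stood 1.96-fold above its trough (as FPKM + 1), at CT1.06 (adjusted p = 2.47e-05, limma). Insig1 had a 1.35-fold difference with its peak at CT19.5 (adjusted p = 0.00769). Lss had a 1.22-fold difference with its peak at CT19.2 (adjusted p = 0.000148), and Srebf2 an amplitude of 0.13 ± 0.04 with its peak at CT22.7 (adjusted p = 0.0137). The call of Srebf2 was lost with quantile normalization (adjusted p = 0.0633) and median centring (0.0856), and that of Insig1 with times as a factor (0.0626).

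Sqle, Cyp51 and Hmgcs1 were not called. Sqle had a fitted amplitude of 0.14 ± 0.05 (adjusted p = 0.112, limma, and 0.0459 without vehicle CT0 replicate 1) and Cyp51 of 0.13 ± 0.05 (adjusted p = 0.121). Hmgcs1 was the flattest, with a 1.03-fold fitted difference (adjusted p = 0.916) and means between 136 and 143 FPKM at the 6 times. For scale, 15 of 15 core clock genes were called, with a median amplitude of 1.01 on the log2 scale, beside 0.14 over the 7 genes and 0.10 over all genes.

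Fitted apart, D-alanine gave 3 called genes of 7, Idi1, Lss and Srebf2, beside 8.30% of all genes, and vehicle gave 2, Idi1 and Lss, beside 9.77%. Idi1 had a 1.99-fold difference with a peak at CT1.32 with D-alanine and 1.95-fold with a peak at CT0.797 with vehicle. Both calls of Idi1 were lost in the first table alone (adjusted p = 0.420 with D-alanine and 0.288 with vehicle, limma). They were also lost with no table term (0.298 and 0.302) and with times as a factor (0.0566 and 0.0811). Lss had an amplitude of 0.15 with a peak at CT19.0 with D-alanine and of 0.13 with a peak at CT19.4 with vehicle. The vehicle call of Lss (adjusted p = 0.0387, limma) ended when any 1 of 9 vehicle libraries was left out, which were replicates 2 and 3 of CT4, 2, 3 and 4 of CT12, and 3 and 4 of both CT16 and CT20. With D-alanine, the call of Lss was lost without mitochondrial genes (adjusted p = 0.0586) and that of Srebf2 with median centring (0.0522), and in the second table alone both were lost (0.127 and 0.0640) while Insig1 and Cyp51 were called. With vehicle, Insig1 was also called in the second table alone (adjusted p = 0.00219, limma), besides Idi1 and Lss. The amplitude of Lss with D-alanine was 0.15 in each table. Insig1 with D-alanine had an adjusted p of 0.0758, and 0.0490 without D-alanine CT0 replicate 2. Srebf2 had 1.34-fold with a peak at CT23.3 with D-alanine (adjusted p = 0.00991, limma) and 1.09-fold with a peak at CT20.8 with vehicle (adjusted p = 0.636). By table, Srebf2 with vehicle had 1.32-fold at CT21.4 in the second and 1.11-fold at CT10.5 in the first. With D-alanine it had 1.40-fold at CT22.5 in the second and 1.30-fold at CT0.258 in the first, and none of these was called.

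The difference in rhythm between the treatments was tested directly and passed for 0 of the 7 genes, as for 0 of 14922 in all, with 0 members and 353 genes at an unadjusted p under 0.05. For Srebf2 the unadjusted p was 0.0691. For Hmgcs1 it was 0.0503, with nearly equal amplitudes of 0.10 in both treatments and fitted peaks at CT15.1 with D-alanine and CT1.51 with vehicle, neither of which was called as a rhythm. The calls of Srebf2 with D-alanine and not with vehicle are therefore no tested difference.

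The tables were also fitted apart, with both treatments together. In the second table alone, 6 of 7 genes were called, all except Hmgcs1, beside 20.7% of all genes. In the first table alone, 0 of 7 were called, beside 12.3% of all genes, and 1 of 7, Idi1, had an unadjusted p under 0.05, at 0.0169. Idi1 had a 2.63-fold difference with its peak at CT0.438 in the second table and 1.53-fold with its peak at CT2.50 in the first. In the second table the mean of Idi1 was 10.4 FPKM at CT0 and 3.13 FPKM at CT12, and in the first it was 2.61 FPKM at CT0 and 1.93 FPKM at CT12.

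Insig1 was the 1 gene of the 7 that passed a test of the difference in rhythm between the tables. In the second table it was at least 18.3 FPKM in each library at CT20 and at most 13.01 FPKM at CT8, with no overlap. In the first table it stood between 6.91 and 10.3 FPKM at CT20 and between 7.46 and 11.4 FPKM at CT8, with overlap. The fitted difference between peak and trough was 1.81-fold in the second table and 1.06-fold in the first. The rhythms of the 2 tables differed for Insig1 (adjusted p = 0.0314, limma), beside 1.44% of all genes, in a test chosen after the data were seen.

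That call depended on single libraries and settings. The adjusted p of Insig1 became 0.0516 without vehicle CT0 replicate 3, 0.0594 without vehicle CT16 replicate 4 and 0.0567 without D-alanine CT16 replicate 4. It was 0.0593 with no filter on low values and 0.0631 with median centring. Idi1 (adjusted p = 0.127, and 0.0413 without vehicle CT20 replicate 2), Srebf2 (0.204), Sqle (0.401), Lss (0.408), Cyp51 (0.656) and Hmgcs1 (0.902) did not pass it.

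**Figure D3:**
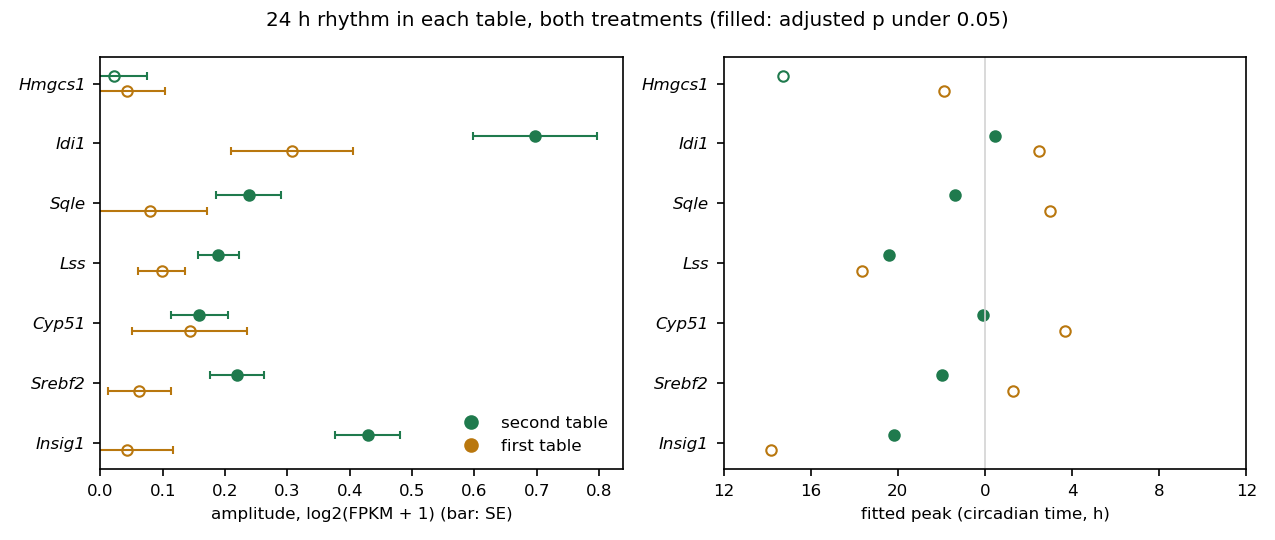
Left, amplitude of the fitted 24 h curve on the log2(FPKM + 1) scale with its SE, and right, the fitted peak in hours of circadian time, for the second table (green) and the first (brown), both treatments together; filled points have an adjusted p under 0.05. All 6 filled genes belong to the second table and peak between CT19.6 and CT0.438, and no gene of the first table is filled.

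The level itself also differed between the tables, in a comparison added after the data were seen. Of the 7 genes, 6 were called higher in the second table, beside 41.0% of all genes called higher and 64.0% called in either direction. Cyp51 ranged from 43.2 to 79.3 FPKM in the second table (median 65.4) and from 21.0 to 62.9 FPKM in the first (median 30.8). The log2 difference was 0.96 for Cyp51, 1.003 for Idi1, 0.70 for Sqle, 0.68 for Insig1, 0.40 for Hmgcs1 and 0.31 for Srebf2, with adjusted p-values of at most 3.78e-07 (limma). Lss, at 0.08 (adjusted p = 0.0557, and 0.0238 to 0.0492 without 1 of 15 libraries), was at the median of all genes, 0.07.

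The mitochondrial share moved with the tables, as given above, and scaling moved the background. TPM rescaling brought the median of all genes to 0.19, and rescaling without mitochondrial genes brought it to -0.15. Rescaled without mitochondrial genes, Cyp51, Idi1, Sqle and Insig1 stayed called higher, Hmgcs1 (0.10, adjusted p = 0.135) and Srebf2 (0.03, adjusted p = 0.571) were no longer called, and Lss was called lower at -0.11. Hmgcs1 was also no longer called under quantile normalization, whereas Lss was called higher under quantile normalization (0.10) and TPM rescaling (0.20). Of the 6 inner medulla markers, 5 were called lower in the second table, with a median of -1.11 over the list, and with their level as a covariate 6 of 7 genes were still called higher. The 16 other sterol enzymes had a median of 0.27, with 13 called higher, among them Ebp (0.70), the sterol isomerase, and 1 called lower, Tm7sf2 (-0.15), a sterol reductase.

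**Figure D4:**
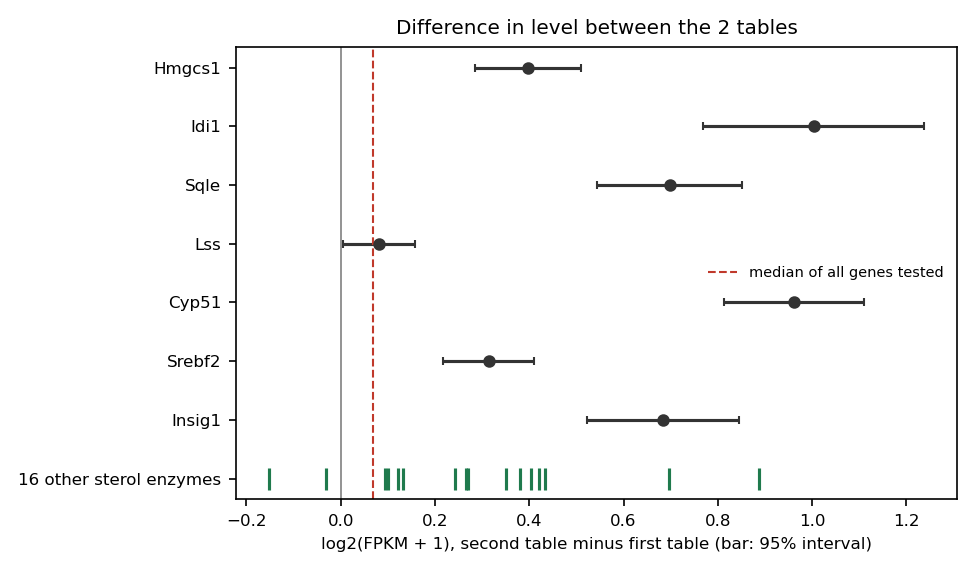
Difference in log2(FPKM + 1), second table minus first (x axis), for 7 genes with 95% intervals from limma, and for 16 other sterol enzymes as green ticks; the dashed line is the median of all genes tested, 0.07. Cyp51 and Idi1 lie farthest to the right, near 1, and the interval of Lss includes the dashed line.

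Covariation between the genes was examined within each table, over 24 libraries, by Pearson's r and Spearman's rho with permutation tests adjusted over 42 pairs. The libraries share their scaling, which can make genes covary. Of 21 pairs, 8 passed in the second table and 3 in the first, all with r above 0. Pairs of other genes were not tested, so no share over all genes stands beside these counts. The median r was 0.30 in the second table and 0.23 in the first.

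Sqle and Cyp51, which act on neighbouring stretches of the pathway, were the pair that held throughout. Their r was 0.81 in the second table (rho = 0.83) and 0.89 in the first (rho = 0.85). The permutation p was 1e-05 in each, the smallest that 100000 permutations can give, and the adjusted p was 0.00014. Without the 2 libraries farthest from the median of Sqle, r was 0.73 in the second table and 0.82 in the first. Taken as residuals from the means of treatment and time, r was 0.84 in the second table and 0.93 in the first. The pair thus covaried among libraries of the same group. Each group holds 2 libraries in a table, so their residuals mirror each other. The permutations treated them as separate values, so p-values of residuals are too small and a pass on residuals is overstated.

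Insig1 and Lss had an r of 0.90 in the second table (rho = 0.91, permutation p = 1e-05, adjusted p = 0.00014) and 0.41 in the first (rho = 0.31, adjusted p = 0.128). As residuals the r was 0.66 in the second table and 0.56 in the first. Idi1 and Srebf2 had an r of 0.68 in the second table (rho = 0.70, permutation p = 0.00018, adjusted p = 0.00189) and 0.28 in the first (adjusted p = 0.338). As residuals its r in the second table was 0.35 and no longer passed (adjusted p = 0.167). Sqle and Insig1 passed in both tables, with an r of 0.60 in the second (rho = 0.56, permutation p = 0.00228, adjusted p = 0.0137) and 0.52 in the first (rho = 0.63, permutation p = 0.00856, adjusted p = 0.0360). As residuals the r of this pair was 0.55 in the second table and 0.41 in the first. The adjusted permutation p was 0.0319, too small as stated above, and 0.116. Hmgcs1 passed in 1 pair, with Cyp51 in the first table (r = 0.50, rho = 0.62, permutation p = 0.013, adjusted p = 0.0498), which no longer passed without the 2 farthest libraries (r = 0.40, adjusted p = 0.207). As residuals in the second table Hmgcs1 had an r of 0.59 with Idi1 (adjusted p = 0.0215, likewise too small), against 0.03 for the values themselves. With Srebf2 its r was -0.30 in the second table and -0.46 in the first, with adjusted p-values of 0.3 and 0.0809.

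**Figure D5:**
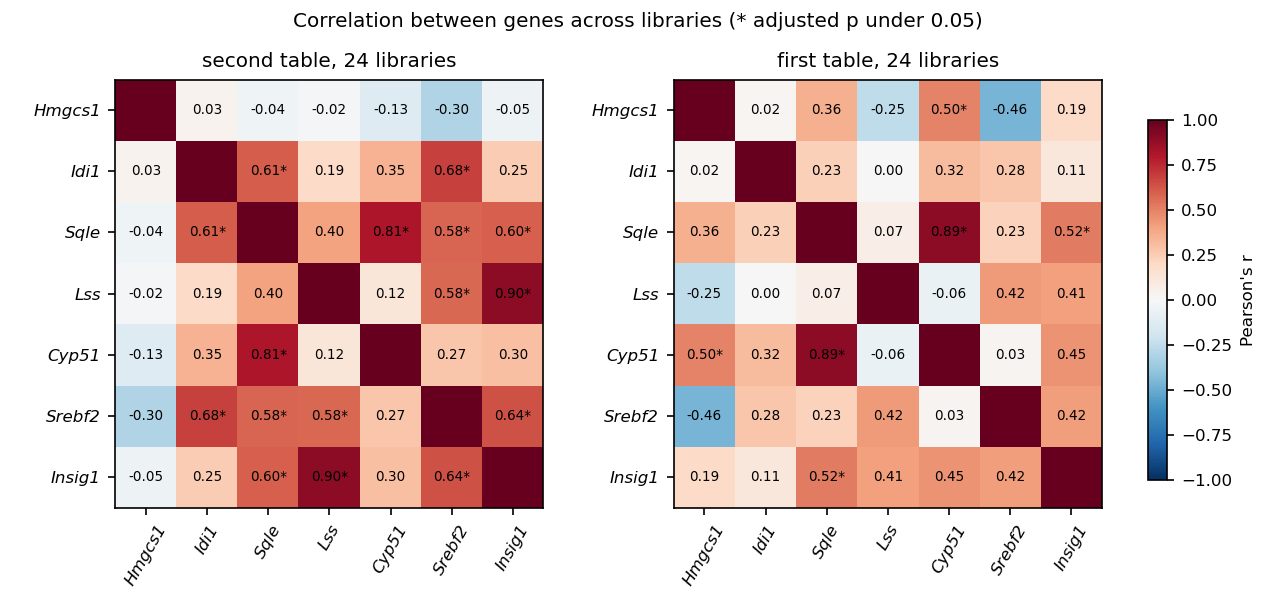
Pearson's r between each pair of 7 genes on log2(FPKM + 1) across the 24 libraries of the second table (left) and the first (right); red is positive, blue negative, and an asterisk marks an adjusted permutation p under 0.05. Sqle and Cyp51 are at 0.81 and 0.89, and the row of Hmgcs1 holds values near or below 0 in the second table.

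Other genes were ranked by how closely they followed the mean standardised profile of the 7 genes over 48 libraries, with r above 0.3 required in each table. Of the 14922 genes tested, 483 outside the 7 passed the limit. Among the 10 closest were Mme (r = 0.76), a membrane endopeptidase of the tubular brush border, Fads1 (r = 0.75), a fatty acid desaturase, Tmem19 (r = 0.75), Pter (r = 0.73) and Slc10a2 (r = 0.72), a bile acid transporter. Fgf1 (r = 0.72), Arhgap26 (r = 0.70), Osbpl8 (r = 0.69), which encodes an oxysterol-binding protein family member, and Nt5e (r = 0.69), an ectonucleotidase, were also among them. No other sterol enzyme was among the 10, and 6 of the 16 listed were among the 483, of which Msmo1 (r = 0.67), the sterol methyl oxidase, ranked 14. As a list, the 16 other sterol enzymes followed the same profile with an r of 0.88 in the second table and 0.73 in the first, and the 7 proximal tubule markers with -0.06 and 0.13. Other lists moved with the profile as well. In the second table and the first, r was 0.68 and 0.21 for 9 fatty acid synthesis genes and 0.46 and 0.08 for 8 of SREBP regulation. It was 0.32 and 0.35 for 13 of uptake and transport, and -0.52 and -0.24 for 15 core clock genes. For cell types it was 0.57 and 0.38 for 5 thick limb and distal tubule markers and -0.44 and -0.17 for 6 collecting duct markers. For 7 endothelial markers it was 0.40 and -0.004. The part of these cell types in the profile was not tested.

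The rest of the pathway gave a like picture for treatment. Of 16 other sterol enzymes, 0 were called for the mean difference between D-alanine and vehicle (4 at an unadjusted p under 0.05), with a median of 0.02. The smallest p-values belonged to Ebp (-0.11, adjusted p = 0.142, limma), Ggps1 (0.14, adjusted p = 0.175), which makes geranylgeranyl diphosphate, and Sc5d (0.13, adjusted p = 0.195), a sterol desaturase. Of 8 genes of SREBP regulation, 0 were called (3 unadjusted) and 8 had differences above 0, with a median of 0.10. They include Insig2 (0.13, adjusted p = 0.160), Scap (0.09, adjusted p = 0.156) and Srebf1 (0.15, adjusted p = 0.199), which encodes SREBP-1. Of all genes, 11391 of 14922 also had differences above 0.

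Of 13 genes of cholesterol uptake and transport, 0 were called (4 unadjusted), with a median of 0.09. Scarb1, the receptor for high-density lipoprotein, had 0.19 (adjusted p = 0.106, limma), and Vldlr, a lipoprotein receptor, 0.12 (adjusted p = 0.127). Of 9 tested genes of fatty acid synthesis, 0 were called (5 unadjusted), with a median of 0.21. Scd1, a desaturase, had 0.49 (adjusted p = 0.0578), Acly, which supplies acetyl-CoA, 0.22 (adjusted p = 0.0640) and Fasn, the fatty acid synthase, 0.20 (adjusted p = 0.139). Of 5 tested adipose markers, 5 also had differences above 0, with a median of 0.30 and sums of 7.39 to 72.4 FPKM with D-alanine and 6.56 to 28.6 FPKM with vehicle; Adipoq was listed at 0 in 20 of 48 libraries, and the part of these genes in the result was not tested.

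For rhythm with both treatments together, 4 of 16 other sterol enzymes were called, a share near the 26.5% of all genes. Among them were Msmo1, with a 1.65-fold difference and a peak at CT21.5 (adjusted p = 7.68e-08, limma), and Pmvk, a mevalonate pathway kinase, with 1.40-fold at CT20.0 (adjusted p = 0.00276). Of 8 genes of SREBP regulation, 4 were called. Srebf1 had a 1.64-fold difference with a peak at CT18.1 (adjusted p = 9.61e-07), and Insig2, Mbtps1 and Scap had 1.22-fold, 1.12-fold and 1.11-fold differences with peaks between CT0.973 and CT3.09. The peaks of Insig1 at CT19.5 and of Insig2 at CT3.09 thus lay on either side of CT0.

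Of 13 genes of uptake and transport, 3 were called rhythmic, beside the same 26.5% of all genes, among them Nr1h3, the oxysterol receptor LXR alpha, with a 1.22-fold difference and a peak at CT21.6 (adjusted p = 0.0131, limma). Of 9 genes of fatty acid synthesis, 5 were called, namely Fasn, Acly, Acaca, Scd1 and Scd2, with peaks between CT19.5 and CT22.6 and differences between 1.16-fold and 1.76-fold.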

How the data were processed

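RNA of 48 mouse kidney libraries was prepared with a Qiagen column kit and a SMARTER mRNA library kit, per the labels' protocols. The authors deposited FPKM values in 2 tables. Per the submitters' processing notes, the genome build was mm10 (GRCm38). Aligner, counter, filters and strandedness: not given in the sources used here. FPKM divides by each library's total, so abundant transcripts shift all others. Whole fragments were recovered from the FPKM steps with GENCODE M21 exon lengths, and 97.0% to 97.6% of low values were whole within 0.05; this gave the depth per library, which sets a counting error of low genes such as Fdps.

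Groups came from the treatment and time labels. Replicate pairs within groups all differed beyond sampling noise (chi-square per gene of at least 5.36). The series text names different mice, but nothing ties a library to a mouse, so p-values measure the spread between libraries. Replicate numbers follow the order of the samples and pair nothing. Values were analysed as log2(FPKM + 1), which understates changes of low genes, with limma 3.58.1 in R 4.3.3 (trended empirical Bayes, 12 groups plus the table; two-sided; Benjamini-Hochberg over 14922 genes), tested on simulated data. Rhythms were a 24 h cosine and sine. Correlations used 100000 permutations (Python 3.11.15, NumPy 2.4.6). Alternatives were a pseudocount of 0.1, no filter, TPM, rescaling without mitochondrial genes, quantile normalization, median centring, table terms, each table alone, robust moderation, an inner medulla covariate, unordered times, and omission of single libraries. Comparisons between the tables were added after seeing the data.

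The members and lists were chosen with earlier results of these data known. From other lists the text names genes past the threshold and up to 3 with the smallest p, and by likeness the 10 closest; a few genes chosen this way are not given here.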

Additional observations from a re-analysis of the deposited data

Results flagged for a closer look

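Of 96 groups of 4 libraries examined for a single library far from the rest, 3 held one; chance alone flags about 1 in 20 groups. Cyp51 in D-alanine CT4 replicate 1 was 26.2 FPKM, where the other 3 libraries were at 60.7 to 66.7 FPKM. Lss in D-alanine CT4 replicate 3 was 2.01 FPKM, against 1.496 to 1.53 FPKM in the others. Srebf2 in vehicle CT4 replicate 4 was 15.5 FPKM, against 10.04 to 10.5 FPKM in the others. Each group joins a pair of libraries from each table, and the tables differ in level, which this comparison and its chance rate leave aside. Within the first table, D-alanine CT4 replicate 2, at 62.9 FPKM of Cyp51, was the D-alanine library that stood apart, since the other 11 ranged from 21.0 to 39.5 FPKM.

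The 24 h rhythm of Insig1 differed between the 2 tables by a test of the difference itself, at an adjusted p of 0.0314.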

How the results depend on the processing

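The count of called members for the mean difference between D-alanine and vehicle was 0, and 1 with TPM rescaling; leaving out single libraries gave 0 to 1. At CT0 it was 0, and 1 with TPM rescaling; leaving out libraries gave 0 to 1. For rhythm with D-alanine the count of 3 became 0 in the first table alone and 1 with no table term or with times as a factor; in the second table alone Lss and Srebf2 were lost and Insig1 and Cyp51 gained. For rhythm with vehicle the count of 2 became 1 with no filter, TPM rescaling, quantile normalization, median centring or the inner medulla covariate, and 0 with no table term, in the first table alone or with times as a factor; leaving out libraries gave 1 to 2, and 9 vehicle libraries each ended the call of Lss. In the second table alone the vehicle count was 3, with Insig1 gained. For both treatments the count of 4 became 2 with no table term and 0 in the first table alone; quantile normalization and median centring each ended the call of Srebf2, and times as a factor that of Insig1. For the rhythm difference between tables the count of 1 became 0 with no filter or median centring, and leaving out libraries gave 0 to 2. As residuals 5 pairs of the second table passed, 4 of them among the 8, by p-values that are too small because paired residuals mirror each other. The mean difference of Insig1, 0.01, turned to -0.00953 without mitochondrial genes, -0.0653 with quantile normalization, -0.0637 with median centring and -0.0348 in the second table alone, and ran from -0.0259 to 0.0334 without single libraries; that of Lss turned to -2.54e-05, -0.0115 and -0.0125 with quantile normalization, median centring and the second table; that of Sqle turned to 0.00700 with TPM rescaling. The table difference of Lss turned to -0.11 without mitochondrial genes. The cause was not tested. Of 752 single-gene values under alternatives, 697 kept their side of the threshold and, for differences, their direction, as did 3163 of 3216 without single libraries. Most of these values belong to results that were not called at the start, so the totals say little about the called ones. Among called rhythms, that of Lss with vehicle kept its call in 5 alternatives and lost it in 8. That of Idi1 with both treatments kept its call in 12 and lost it in 1. Tests of rhythm and interaction have no direction and were judged by the threshold alone. Over all genes, 259 were called for the mean difference (237 higher, 22 lower), but 2668 with TPM rescaling (2638 higher, 30 lower), 23 with median centring (3 higher, 20 lower), 14 with quantile normalization (3 higher, 11 lower), 52 without mitochondrial genes (37 higher, 15 lower), 145 with no filter, 17 with no table term, 781 with the inner medulla covariate, 14 in the second table and 0 in the first; leaving out libraries gave 93 to 631. At CT0, 170 became 0 to 2612, or 0 to 1247 without single libraries. Rhythm counts over all genes fell to 233, 266 and 1831 in the first table alone, for D-alanine, vehicle and both, from 1238, 1458 and 3947. The 215 genes with a rhythm difference between tables became 54 to 350, or 26 to 541 without single libraries. No paired analysis was possible because the labels number no replicates within a group. Depth limits Fdps, with 1 to 25 fragments, most.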
